A study of Mus musculus with 5 samples.

Results

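Among dissociated mouse ovary cells, 367 granulosa cells were selected that carried transcripts of at least 4 of 7 genes (Tinagl1, Emb, Kcnk3, Nupr1, Ace, Agt and Unc5b), and they are called members here. They were 367 of 48163 cells in all and of 11632 cells of a granulosa gate. The gate kept cells with at least 1000 detected genes, under 15% mitochondrial UMIs (unique molecular identifiers, each counting 1 captured transcript) and at least 2 UMIs of Inha, the inhibin alpha subunit. It also required 0 UMIs of Pamr1, of Ube2c, a gene of dividing cells, and of Dcn, a stromal proteoglycan, and at most 2 of the 5 genes Lox, Adamts5, Dpp4, Neto2 and Slc1a1. The measured expression of these genes chose the members, so their levels, and every other difference between members and the remaining gate cells, are descriptions without a test. The libraries came from untreated C57BL6/J ovaries at 2, 3, 4, 5 and 6 wk, with 1 library per age and no replicate. The number of mice behind a library is not given in the sources used here, and the spread between mice is not measured. Ovaries were dissociated with trypsin and live cells were sorted before capture.

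Granulosa cells surround the oocyte, divide as the follicle grows, produce inhibins and anti-Müllerian hormone, and in antral follicles convert androgens to estrogens. Most follicles never ovulate and are lost by atresia, in which granulosa cells die or turn over while the theca layer can persist. In the juvenile mouse the first wave of follicles is remodeled around puberty, and the study called the granulosa clusters of this process remodeling. Of the genes in the label, S100a6 encodes a small calcium-binding protein, Nupr1 a chromatin-associated protein induced by stress, and Agt angiotensinogen, the precursor of the angiotensin peptides.

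The members were absent from the earliest library and common from 4 wk. The 2, 3, 4, 5 and 6 wk libraries held 0, 3, 160, 113 and 91 members among 2035, 2522, 3032, 1870 and 2173 gate cells. As shares of the gate with exact 95% binomial intervals, these were 0.119% (0.0245 to 0.347) at 3 wk, 5.28% (4.51 to 6.13) at 4 wk, 6.04% (5.01 to 7.22) at 5 wk and 4.19% (3.38 to 5.12) at 6 wk. At 2 wk, 0 of 2035 cells allows a share of up to 0.147% by a limit of 3 cells, and the exact interval reaches 0.181%. All intervals here cover counting error only, since neither mice nor libraries were repeated. The share at 4 wk was at least 35.8 times that at 2 wk, with the 2 wk count set to 3 cells and a lower interval end of 28.8, and 44.4 times (14.9 to 217) that at 3 wk. From 4 wk on the ratios were 1.15 (0.892 to 1.47) for 5 over 4 wk and 0.693 (0.520 to 0.922) for 6 over 5 wk. They depended on the threshold, since cells with at least 5 markers made up 0.923, 2.46 and 1.24% of the gate at 4, 5 and 6 wk. The libraries differed in median depth of the gate cells, and when every cell was thinned to 5000 UMIs the ratio of 4 over 2 wk had a lower bound of 8.82 in place of 35.8.

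The levels of the 7 marker genes in all gate cells, members included, differed between the ages. Nupr1 stood at 34.7, 118, 583, 314 and 235 CPM (a depth-scaled level proportional to the share of all UMIs that came from the gene in the summed cells) at 2, 3, 4, 5 and 6 wk in all gate cells, and Agt at 3.32, 10.9, 93.8, 97.1 and 62.6 CPM. Emb, which encodes the adhesion protein embigin, stood at 1.06, 1.87, 12.9, 9.43 and 6.47 CPM, and Kcnk3, a 2-pore potassium channel, at 1.35, 3.52, 10.5, 37.9 and 7.23 CPM. All 4 genes were lowest at 2 wk, and Nupr1 and Emb were highest at 4 wk. Tinagl1, a matricellular protein, was lower at 3 than at 2 wk and highest at 5 wk, with 4.23, 2.801, 7.77, 19.8 and 10.7 CPM. Ace, the angiotensin-converting enzyme, stood at 4.03, 2.46, 6.797, 5.17 and 2.46 CPM, and Unc5b, a netrin receptor, was lowest at 3 wk and highest at 6 wk, with 0.882, 0.529, 3.33, 4.699 and 5.84 CPM. In the gate cells without the members, Nupr1 stood at 34.7, 118, 481, 201 and 188 CPM, Agt at 3.32, 10.6, 78.7, 77.04 and 51.8 CPM and Ace at 4.03, 2.43, 3.104, 2.62 and 1.36 CPM. Nupr1 and Agt were thus lowest at 2 wk there too, whereas Ace was highest at 2 wk. Cells with at least 1 of the 7 markers made up 30.6, 49.4, 78.3, 71.3 and 65.1% of the gate, and cells with at least 3 made up 0.393, 0.991, 14.3, 15.03 and 10.6%. S100a6, which the selection did not use, stood at 4.88, 6.16, 25.1, 42.9 and 20.6 CPM in the whole gate.

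**Figure D1:**
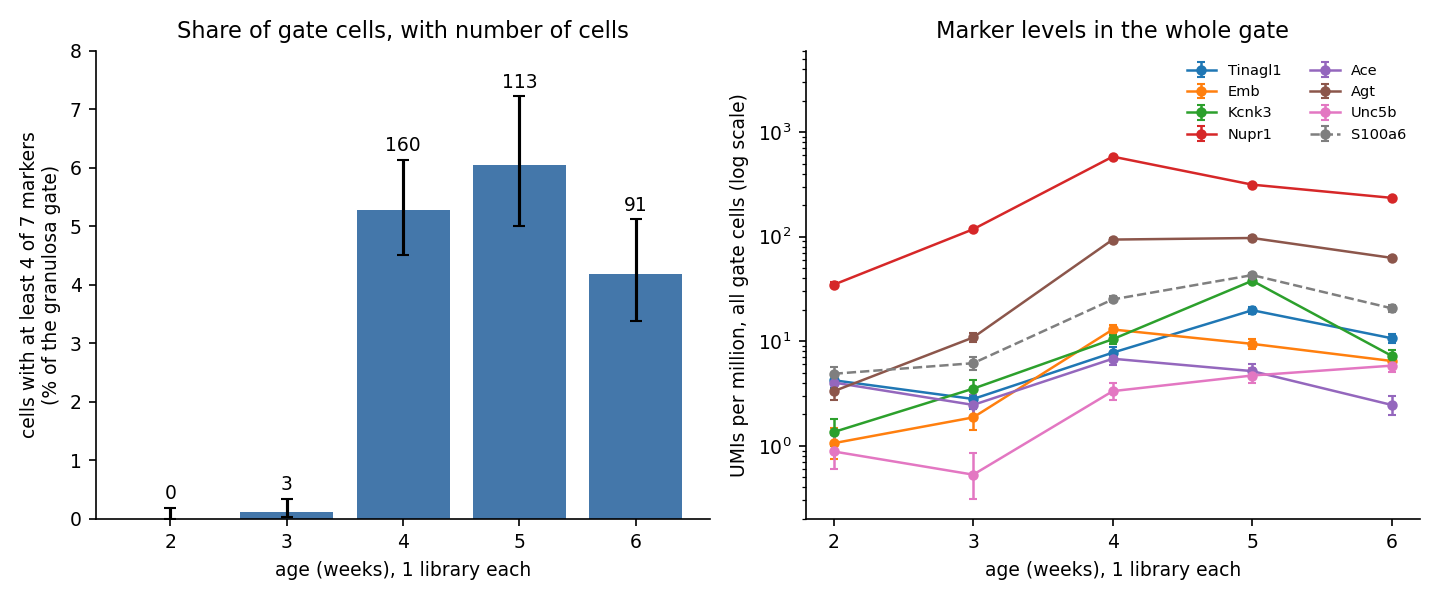
Left, members as a percentage of granulosa gate cells at each age, with exact 95% binomial intervals and the number of members above each bar; right, CPM of the 7 marker genes and S100a6 in all gate cells on a log axis, with exact 95% Poisson intervals. The share stands at 0 and 0.119% at 2 and 3 wk and between 4.19 and 6.04% from 4 wk on.

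Only the 4, 5 and 6 wk libraries held enough members for comparisons, so the values that follow rest on 364 members and 6711 other gate cells of these 3 libraries, given in the order 4, 5 and 6 wk. The members were deeper than the other gate cells in each library, with median UMIs of 14909.5, 24150 and 22037 against 11491, 15485 and 15974. A deeper cell shows more markers, so the marker number and the depth of a cell are linked by the rule. Median mitochondrial shares were 5.43, 6.27 and 6.96% in members and 6.27, 7.56 and 8.27% in the others. Scrublet called 10 of the 367 members doublets (2.72%), and 1.33% of the other gate cells at 4 to 6 wk, and both were kept. Between 18 and 35 cell barcodes were shared by any 2 libraries, and 3 members had a barcode that also occurred in another library.

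Within the members, most combinations held Nupr1 and Agt together with some of the other 5 markers, a pattern that the rule helps to set. In the other gate cells, Nupr1 had a UMI in 54.0% and Agt in 30.7%, and the other 5 markers in 2.40 to 8.03%. Nupr1 and Agt each had a UMI in 97.8% of members, Emb in 62.9%, Tinagl1 in 52.2%, Kcnk3 in 45.3%, Ace in 42.0% and Unc5b in 36.5%. Over all 367 members, those at 3 wk included, the combination Tinagl1, Emb, Nupr1 and Agt was the most frequent with 45 (12.3%). Emb, Kcnk3, Nupr1 and Agt followed with 38 (10.4%). Only 3 members carried all 7. At 4, 5 and 6 wk Nupr1 stood at 2015, 1449 and 1029.6 CPM in members and 481, 201 and 188 CPM in other gate cells, and Agt at 305, 298 and 245 against 78.7, 77.04 and 51.8 CPM. Both were higher in members in each library without overlap, which the selection by these genes helps to set. Kcnk3 was the exception among the markers, with 57.3, 43.3 and 42.3 CPM in members and 7.11, 37.3 and 5.15 CPM in the others, which put the groups close together at 5 wk. Ace stood at 58.6, 30.7 and 20.9 CPM in members, and 40.9% of members held UMIs of both Agt and Ace, against 0.939% of other gate cells, a gap that the rule itself sets.

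Cells of other types, named by at least 3 of their own markers or, for mesenchymal cells, by Dcn, also carried the 7 markers. At least 4 of the 7 were also found in 11.9% of pericytes, 6.51% of endothelial cells, 3.27% of hematopoietic cells and 2.38% of mesenchymal cells over all 5 libraries. Members were not left out of the first 3 types. Of the 114 pericytes, 44 endothelial and 13 hematopoietic cells with at least 4 markers, 103, 36 and 12 lay outside the granulosa gate. At 4 to 6 wk, with each cell thinned to 5000 UMIs, Agt had a UMI in 67.7% of members, 18.8% of other gate cells, 45.7% of mesenchymal cells and 6.81% of hematopoietic cells (unthinned 97.8, 30.7, 60.9 and 11.1%). The median depths before thinning were 18908, 13651, 8970 and 8879.5 UMIs. Agt is a gene of the rule, so its share in members was set by the selection.

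The granulosa part of the label was checked with Amh and Foxl2. Amh, the anti-Müllerian hormone gene, had a UMI in 44.5% of members and 53.9% of other gate cells, against 4.45% of mesenchymal and 12.7% of hematopoietic cells. Foxl2, a transcription factor that maintains granulosa identity, had a UMI in 68.96% of members, 63.2% of the others, 58.9% of mesenchymal cells and 15.7% of hematopoietic cells. With cells thinned to 5000 UMIs, in the same order, Amh had a UMI in 22.7, 42.7, 2.14 and 11.1% and Foxl2 in 37.3, 40.4, 42.9 and 11.1%. At 4, 5 and 6 wk the thinned share for Amh was 37.3, 12.4 and 9.89% in members, 21.1, 6.82 and 8.89% in hematopoietic cells and 5.55, 0.736 and 1.497% in mesenchymal cells. At 6 wk the members were thus close to the hematopoietic and above the mesenchymal share. Foxl2 did not separate the members from mesenchymal cells. S100a6 named only a portion of the members: 163 of 364 (44.8%) held a UMI of it, against 8.94% of other gate cells.

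The sequence upstream of Nupr1 is shown because Nupr1 was the marker that most members carried together with Agt, and because Nupr1 is a known target of ATF4, a transcription factor of the integrated stress response. The 250 bases before the RefSeq start of Nupr1 lie at chr7:126625471-126625720 (GRCm38.p6, minus strand). The capitals mark CACGTG, an E-box that reads the same on both strands, and TTGCATCA, the reverse-strand form of the ATF4-type letters TGATGNAA.
Nupr1 upstream: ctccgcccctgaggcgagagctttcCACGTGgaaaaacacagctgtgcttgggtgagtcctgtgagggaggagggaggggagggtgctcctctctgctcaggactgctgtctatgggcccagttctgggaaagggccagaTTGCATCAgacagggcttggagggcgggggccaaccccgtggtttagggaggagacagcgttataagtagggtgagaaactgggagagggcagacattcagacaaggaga
The ATF4-type match ended 102 bases before the start and the E-box 219 bases before it. Of 32851 RefSeq windows of 300 bases (250 before to 50 after a start), 3.97% held TGATGNAA on either strand and 7.15% held CACGTG. Among the genes higher in members that are described next, 42 had a window and 2 of them held the ATF4-type letters (4.76%) and 3 the E-box (7.14%). Nupr1 itself, a gene of the rule, was among both the 2 and the 3. Even with it, the shares were close to those of all 27025 genes with a window, 4.51 and 8.09%. Among the lower genes, 24 had a window, and 1 held the ATF4-type letters and 1 the E-box (4.17% each). A match describes the letters alone.

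Beyond the genes of the rule, Spp1 and S100a6 stood highest in the members relative to the other gate cells, and Gatm and Igfbp5 were among the lowest. A gene was counted higher when its CPM in members was at least 2 times that in other gate cells in each of the 3 libraries, and lower when it was at most 0.5 times. Of 6056 genes with a mean of at least 20 CPM over both groups, 54 were higher (0.892%), 4 of them genes of the rule, and 32 were lower (0.528%). These counts are printed as a description, because the same contrast selected the cells. The median log2 ratio of all genes was -0.03, and 25.7% of genes were above 1 in all 3 libraries and 30.5% below 1.

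S100a6 stood at 137, 283 and 171 CPM in members and 17.1, 18.9 and 11.7 CPM in other gate cells, a ratio of 12.9 (12.05 to 13.9) with the 3 libraries summed. The lowest member value was far above the highest value of the others. Spp1, which encodes the secreted matrix phosphoprotein osteopontin, stood at 95.98, 75.8 and 37.9 CPM against 1.31, 0.489 and 0.145 CPM, a ratio of 109.8 (84.6 to 145), and its UMIs came from 29 of the 364 members. S100a6 had UMIs in 163 members, but 5 cells held 45.9, 45.4 and 70.4% of them at 4, 5 and 6 wk, and the 29 members with Spp1 held 565 of 1500. Hspb1, a small heat shock protein that binds actin and misfolded proteins, stood at 268, 218 and 249 against 61.4, 54.6 and 39.4 CPM, with a ratio of 4.72 (4.47 to 4.98). After thinning, it had a UMI in 46.96% of members, 14.1% of the others and 5.11% of hematopoietic cells (unthinned 72.8, 23.4 and 7.19%). S100a6 after thinning had a UMI in 26.2% of members, 4.48% of the others and 32.8% of hematopoietic cells (unthinned 44.8, 8.94 and 44.4%), and in 24.6% of mesenchymal cells, so neither type gives a background for it. In GRCm38, S100a6 lies on chromosome 3 from 90612882 to 90624181 and Spp1 on chromosome 5 from 104435118 to 104441050, both on the plus strand.

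The other leading genes had smaller ratios than S100a6. Tnnc1, a troponin C of slow muscle, stood at 48.8, 34.9 and 20.4 CPM against 8.27, 5.69 and 4.97 CPM, a ratio of 5.59 (4.82 to 6.47). Tagln2, an actin-binding protein of the transgelin family, stood at 140.3, 123 and 73.4 against 40.3, 36.3 and 20.8 CPM (ratio 3.56). Ckb, the brain-type creatine kinase, stood at 189.9, 160.3 and 128 against 44.5, 38.1 and 39.2 CPM (ratio 3.96). In these 3 genes the member value exceeded that of the other cells of the same library at each age. Ckb and Tagln2 were more frequent in the reference types after thinning, with Ckb in 40.1% of thinned members, 64.3% of hematopoietic and 53.5% of mesenchymal cells and Tagln2 in 35.4, 72.3 and 44.8% (unthinned 64.3, 69.6 and 62.8% for Ckb and 61.8, 81.7 and 57.1% for Tagln2). Slc6a6, the taurine transporter, had a ratio of 3.62 (3.44 to 3.81), and Mgst2, a microsomal glutathione transferase, one of 4.56 (3.98 to 5.22). Lgr6, a receptor for R-spondins, had a ratio of 4.199 (3.68 to 4.78), Rrad, a small GTPase that acts on calcium channels, one of 3.76 (3.28 to 4.29), and Bgn, the matrix proteoglycan biglycan, one of 3.99 (3.62 to 4.39). Anxa1, a calcium-dependent membrane-binding annexin, stood at 17.9, 52.4 and 45.7 against 5.72, 11.3 and 7.14 CPM (ratio 4.96), and was lowest at 4 wk in both groups.

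**Figure D2:**
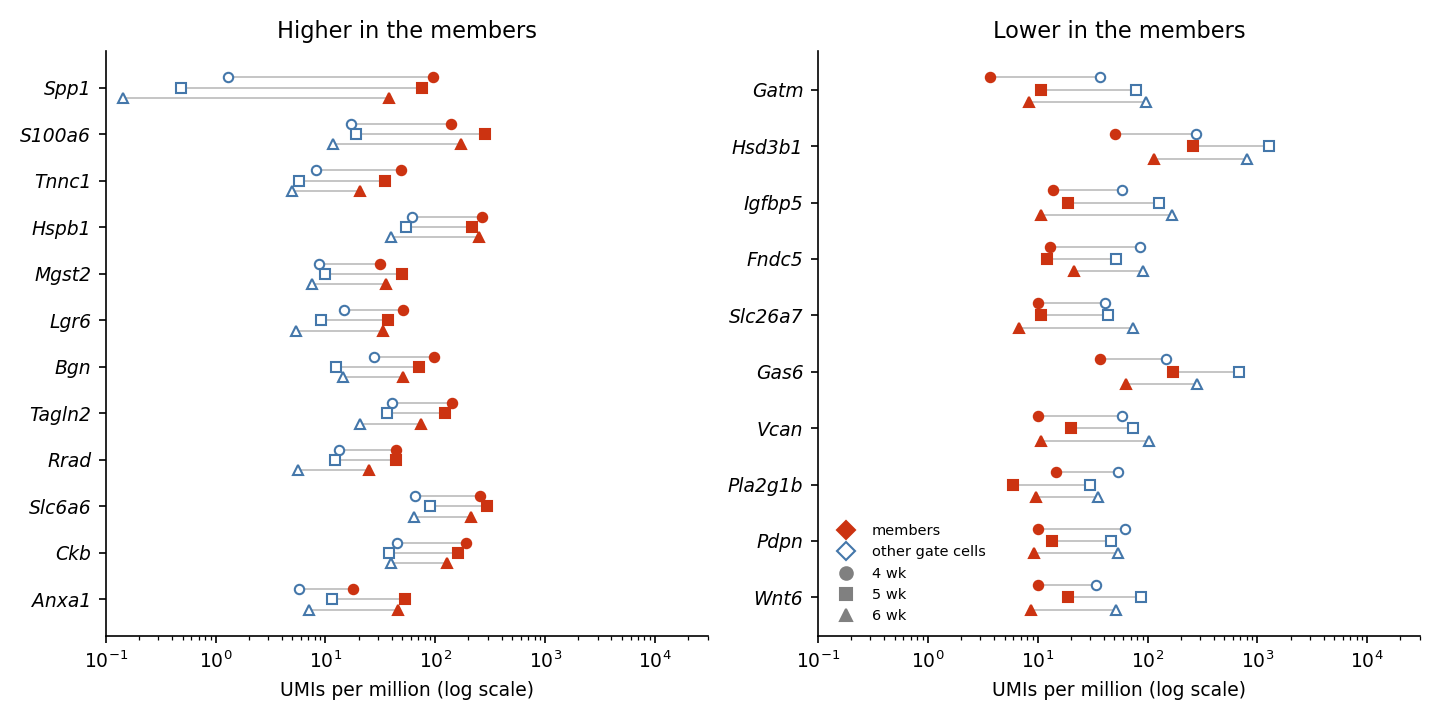
CPM on a log axis of the 12 genes whose lowest ratio over the 3 libraries was highest (left) and the 10 whose highest ratio was lowest (right), members (filled) against other gate cells (open), with circles, squares and triangles for the 4, 5 and 6 wk libraries and a grey line joining the groups of a library. For each gene and library the groups stand apart, with Spp1 and S100a6 farthest on the left and Gatm, at 0.109 times with the libraries summed, on the right.

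The genes lowest in members included Gatm and Igfbp5 of the preantral list and Hsd3b1 of the steroid list. None of the 3 was lower in each library than in the Lox cells described below. Gatm, which makes the precursor of creatine, stood at 3.66, 10.8 and 8.26 CPM in members and 36.7, 79.3 and 97.7 CPM in other gate cells, a ratio of 0.109 (0.0826 to 0.142). Hsd3b1, the 3-beta-hydroxysteroid dehydrogenase of progesterone synthesis, stood at 50.8, 261 and 114 against 274, 1279.7 and 805 CPM, a ratio of 0.198 (0.187 to 0.2103). Igfbp5, which binds insulin-like growth factors, stood at 13.8, 18.9 and 10.7 against 59.1, 127 and 166 CPM, a ratio of 0.127 (0.105 to 0.154). All 3 were lower in members in each library without overlap, though Hsd3b1 at 5 wk in members came close to its 4 wk level in the other cells. The others among the 10 lowest were Fndc5, the irisin precursor (0.193), Slc26a7, an anion exchanger (0.178), Vcan, the matrix proteoglycan versican (0.178), Pdpn, the membrane glycoprotein podoplanin (0.204), Wnt6, a Wnt ligand (0.236), Pla2g1b, a secreted phospholipase (0.247) and Gas6, a ligand of TAM receptor kinases (0.272). These are ratios with the libraries summed, which can lie outside the range of single libraries because the groups differ in library make-up. For Gas6 that range was 0.226 to 0.2495, for Tagln2 3.38 to 3.53, for Foxl2 0.719 to 0.752 and for Ddit4 1.54 to 1.61.

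The gene lists give the same contrast by function, with the median log2 ratio of each list to be read beside -0.03 for all genes. The counts of a list are to be read beside 0.892% higher and 0.528% lower over all genes. Over all genes, 25.7% were above 1 and 30.5% below 1 in each library. The 6 genes that the study named for its remodeling clusters were chosen by the study on these libraries and are not independent evidence. None of the 6 passed the 2-fold limit, all 6 were above 1 in each library, and their median log2 ratio was 0.57. Cyp1b1, an estrogen-metabolizing cytochrome, stood at 96.8, 153 and 102 CPM against 57.2, 56.5 and 57.7 CPM, a ratio of 2.10 (1.95 to 2.25), and Cxcl1, a neutrophil chemokine, had a ratio of 1.76 (1.66 to 1.87). Atf3, a stress-induced transcription factor, had a ratio of 1.54 (1.46 to 1.62), Sox4, a transcription factor of progenitor cells, one of 1.43 (1.403 to 1.46), Apoe, a lipid carrier, one of 1.33 (1.28 to 1.37), and Bmp2, a ligand of the TGF-beta superfamily, one of 1.298 (1.19 to 1.41). None of the 6 ratios came near that of S100a6.

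Granulosa identity genes stood lower on balance. Of 14 tested, 0 were higher and 2 lower, and 10 were below 1 in each library, with a median log2 ratio of -0.52. Amh stood at 161, 38.1 and 30.6 CPM in members and 477, 221 and 237 CPM in the others, a ratio of 0.243 (0.223 to 0.264), and Inhbb, the inhibin beta B subunit, had a ratio of 0.2496 (0.222 to 0.279) and was lower in members at each age. Inhba, the beta A subunit, varied with age in both groups, with 52.9, 62.5 and 320.2 CPM in members and 79.2, 451 and 1050.3 CPM in the others. Wt1, a transcription factor of early granulosa cells, had a ratio of 0.515 (0.463 to 0.571), Nr5a2, a nuclear receptor needed for ovulation, one of 0.659 (0.631 to 0.688) and Foxl2 one of 0.707 (0.656 to 0.762). Gja1, the gap junction protein connexin 43, was close to 1 at 0.9398 (0.919 to 0.961), and Runx1, a transcription factor of the fetal granulosa lineage, was the member of the list above 1 in each library, at 1.49 (1.40 to 1.58).

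The preantral list had a lower median than the granulosa identity list, and the antral list a higher one. Of 8 preantral genes, 0 were higher and 3 lower (Amh, Gatm and Igfbp5), 7 were below 1 in each library, and the median log2 ratio was -1.15. Itga6, a laminin receptor subunit, had a ratio of 0.385 (0.346 to 0.427) and Wnt4, a Wnt ligand of early ovarian development, one of 0.588 (0.542 to 0.637). Kitl, the ligand by which granulosa cells signal to the oocyte, was the exception at 1.295 (1.22 to 1.38). Of 8 antral genes, 0 were higher and 1 lower, Nppc, the natriuretic peptide that holds oocyte meiosis, with 10.2, 17.1 and 40.3 CPM against 26.1, 52.2 and 142 CPM, and the median was -0.37. Slc38a5, an amino acid transporter of cumulus cells, stood on the other side with 231, 353 and 380.5 CPM in members and 153, 149 and 147 CPM in the others, a ratio of 2.14 (2.05 to 2.24) that missed the limit at 4 wk.

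Of 12 steroid synthesis genes tested, 0 were higher and 2 lower, Hsd3b1 and Cyp17a1, 4 were below 1 in each library, and the median log2 ratio was -0.73. Cyp19a1, the aromatase of estrogen synthesis, was under the filter, with 0, 0 and 8.75 CPM in members and 0.899, 10.8 and 15.8 CPM in the others. Hsd17b1, which converts estrone to estradiol, stood at 68.3, 179 and 218 against 103, 254 and 439 CPM. Cyp17a1, the androgen-forming enzyme of theca cells, stood at 6.10, 258 and 0.486 against 15.2, 717 and 6.74 CPM, but its UMIs came from 7 members, 5 of which held 99.7% of them, and from a single UMI at 6 wk. Its summed ratio of 0.469 turned to 1.03 with at least 5 markers and to 4.52 against the antral cells described below. Of the other gate cells at 5 wk, 17.0% carried at least 3 theca markers, against 3.54% of members. Akr1cl, an aldo-keto reductase and the most abundant gene of the list, had a ratio of 0.993 (0.979 to 1.01). Star, which carries cholesterol into mitochondria, had a ratio of 0.372 with all cells. Without cells carrying 3 markers of another type, Cyp17a1 was under the filter, Star turned to a ratio of 1.44 (1.04 to 1.96), and the ratio of Hsd3b1 was 0.0791 (0.0693 to 0.0898).

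Of the renin-angiotensin genes, Agt and Ace were high by selection and its other genes had few UMIs or ratios near 1. Ren1, which encodes renin, and the receptor genes Agtr1b and Mas1 had 0 UMIs in the members, and a count of 0 allows up to 3 UMIs for each. Agtr1a had 4 UMIs and Agtr2 12 UMIs in all 364 members. Of 2 further genes past the filter, neither passed the limit: Atp6ap2, the renin receptor and proton pump subunit, had a ratio of 0.889 (0.783 to 1.01) and Lnpep, an angiotensin-binding aminopeptidase, one of 1.27 (1.16 to 1.40). Mme, the membrane protease neprilysin, held 9 UMIs in members at 0.407, 2.095 and 0.972 CPM, against 4.64, 15.5 and 5.46 CPM in the others. In the netrin list, where Unc5b was a gene of the rule, Ntn4, a laminin-related netrin, stood at 55.7, 48.5 and 72.9 CPM against 33.9, 31.2 and 27.0 CPM, a ratio of 1.88 (1.698 to 2.09), and Neo1, the netrin and RGM receptor neogenin, had one of 0.878 (0.775 to 0.992). Ntn1 held 13 UMIs, and Unc5d and Dcc held 0.

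In the integrated stress response list, Nupr1 is a gene of the rule. Of 11 genes tested without Nupr1, 0 were higher and 0 lower, with a median log2 ratio of -0.14. Over all genes 0.892% were higher and 0.528% lower, and at these shares so short a list would hold few calls. Atf4, the central transcription factor of the response, stood at 187, 166 and 133 CPM in members and 231, 205 and 207 CPM in the others, a ratio of 0.761 (0.718 to 0.807). Ddit3, the death-promoting factor CHOP, had a ratio of 0.782 (0.687 to 0.887), and Phgdh, the first enzyme of serine synthesis, one of 0.518 (0.454 to 0.589). Ddit4, an inhibitor of mTORC1, was above 1 in each library at 1.52 (1.33 to 1.74). Of 8 BCL2-family and death genes, 0 were higher and 0 lower, 5 were above 1 and 1 below 1 in each library, and the median was 0.18. In it Bcl2l11, the death activator BIM, had the ratio farthest from 1 among the 8 genes past the filter, at 1.82 (1.63 to 2.04), and Bok, a BAX relative, stood at 1.37 (1.28 to 1.46). Bcl2, the survival factor, was under the filter and farther from 1, with 11.4, 10.1 and 7.77 CPM against 23.1, 21.97 and 36.8 CPM. Immediate-early and heat-shock genes, which dissociation raises, had 0 higher and 0 lower of 16 and a median of 0.08.

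S100 and annexin genes stood higher as a list. Of 12 tested, 3 were higher (S100a6, Anxa1 and Anxa2) and 0 lower, and 10 were above 1 in each library, with a median log2 ratio of 0.54. Over all genes, 0.892% were higher and 25.7% were above 1 in each library. Anxa2, the partner of S100a10 at the plasma membrane, stood at 301, 339.8 and 251 CPM in members and 147, 142 and 113 CPM in the others, a ratio of 2.26 (2.16 to 2.37). S100a10 itself had a ratio of 1.45 (1.39 to 1.53), Anxa5, a phosphatidylserine-binding annexin, one of 1.93 (1.86 to 2.01), and S100a13 one of 1.88 (1.71 to 2.06). Anxa4 was the gene below 1 in each library, at 0.827 (0.7301 to 0.933). Over the Lox cells described below, the lowest ratio in a library was 0.716 for Anxa1 and 1.23 for Anxa2.

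Basement membrane genes split into collagen IV and fibronectin on the high side and collagen XVIII on the low side. Of 10 tested, 3 were higher (Col4a1, Col4a2 and Fn1) and 1 lower (Col18a1), with a median log2 ratio of 0.65. Col4a1 stood at 214, 175 and 168 CPM in members and 55.3, 62.1 and 44.1 CPM in the others, a ratio of 3.49 (3.29 to 3.71), and Col4a2 at 113, 80.3 and 74.8 against 31.5, 35.2 and 24.6 CPM, a ratio of 2.98 (2.73 to 3.24). The chains of these genes assemble into the collagen IV network of the follicular basement membrane. Fn1, fibronectin, stood at 22.8, 49.6 and 41.3 against 9.11, 13.6 and 10.4 CPM. Col18a1, the precursor of endostatin, stood at 7.32, 27.6 and 9.72 against 72.3, 69.7 and 71.1 CPM, a ratio of 0.223 (0.184 to 0.268). Sparc, a collagen-binding glycoprotein, and Hspg2, perlecan, had ratios of 1.76 (1.69 to 1.82) and 2.05 (1.86 to 2.25). Mesenchymal cells held Col4a1 in 82.7% of thinned cells, members in 36.7% and other gate cells in 11.4% (unthinned 86.7, 57.97 and 20.8%). Without cells carrying 3 markers of another type the ratio of Col4a1 was 7.94 (7.28 to 8.66) and that of Col4a2 6.22 (5.54 to 6.99). Fn1, at 4.898 (4.05 to 5.89), then was under the filter.

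The gene starts of Col4a1 and Col4a2 are shown because the genes were higher together and lie head to head. In GRCm38.p6, RefSeq places the start of Col4a1 at base 11312826 of chromosome 8 on the minus strand and that of Col4a2 at base 11312805 on the plus strand, so the first 22 bases of the genes overlap on opposite strands. The 30 bases at chr8:11312801-11312830 follow, read 5′ to 3′ on the strand of each gene, with the overlap in capitals.
Col4a1 (minus strand): ccccTTGGAGACGCCGCCCGCGCACTgccg
Col4a2 (plus strand): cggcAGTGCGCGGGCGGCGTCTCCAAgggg

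Of 11 BMP and TGF-beta genes, 1 was higher, Tgfb1, a growth factor kept latent in the matrix, with 96.8, 67.4 and 36.4 CPM against 24.8, 25.2 and 17.3 CPM and a ratio of 3.08 (2.79 to 3.39), and 0 were lower, with a median log2 ratio of 0.38. Its receptor gene Tgfbr2 was under the filter with 11.4, 13.97 and 15.1 against 4.004, 5.73 and 6.53 CPM, and Id1, a target of BMP signals, had a ratio of 1.81 (1.71 to 1.91). Of 5 angiogenic genes, 0 were higher and 0 lower, with a median of 0.58: Hif1a, the hypoxia factor, stood at 1.74 (1.66 to 1.83), Angptl4 at 1.49 (1.38 to 1.61) and Vegfa, the main endothelial growth factor, at 0.984 (0.871 to 1.11). Of 11 cell cycle genes, 0 were higher and 0 lower, with 7 below 1 in each library and a median of -0.31. Ccnd2, the D cyclin of granulosa cells, stood at 309, 157 and 227 against 484, 336 and 556 CPM, and Cdkn1a, the inhibitor p21, was above 1 in each library at 1.83 (1.63 to 2.05). The gate removed cells with Ube2c, so cells with its transcripts are missing from both groups. Of 19 antioxidant and lysosomal genes, Gpx3, a secreted glutathione peroxidase, was higher with 615, 341 and 377 against 206, 159 and 118 CPM, Gsta4 and Gstm2, glutathione transferases, were lower with ratios of 0.241 and 0.376, and the median was 0.26.

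**Figure D3:**
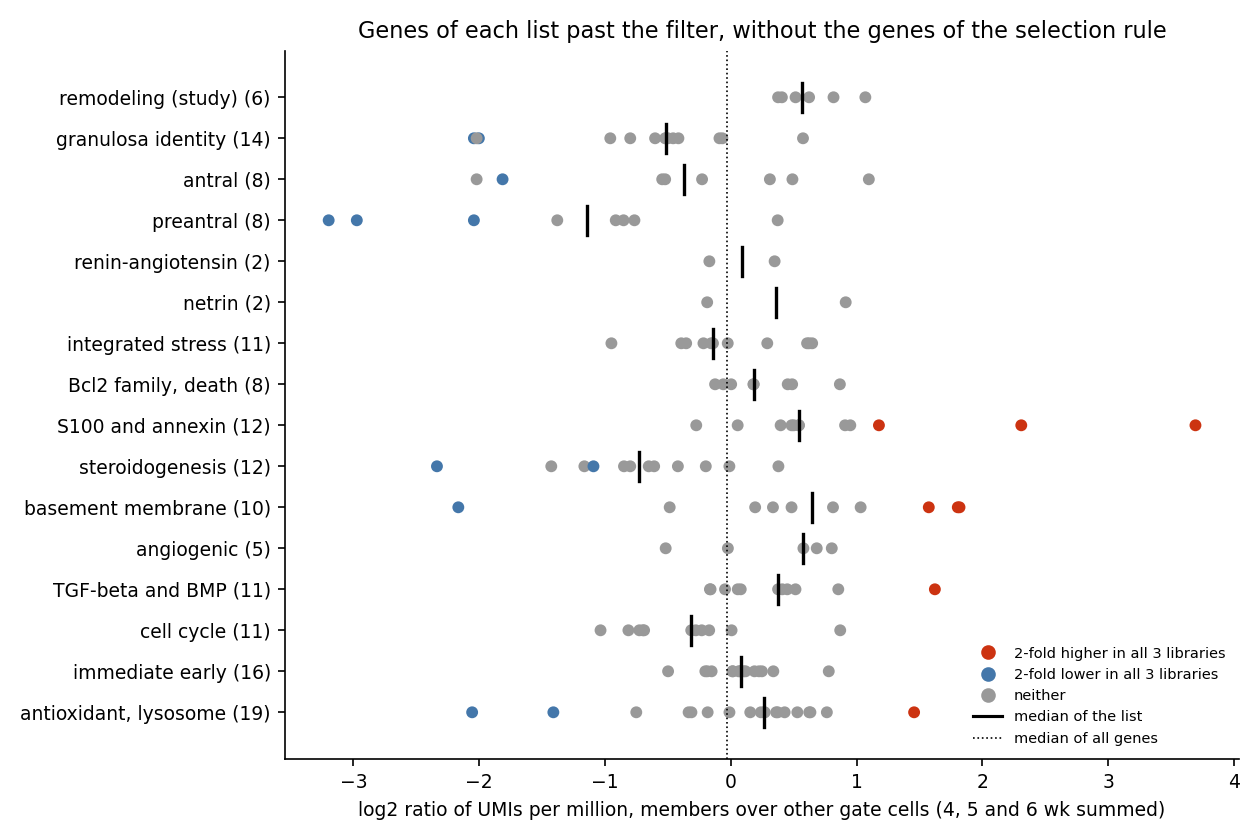
Log2 ratio of CPM, members over other gate cells at 4, 5 and 6 wk summed, for each gene of 16 lists that passed the filter (number in brackets), with genes of the rule left out, list medians as black bars and the median of all genes as a dotted line. Among these 16 lists preantral genes have the lowest median (-1.15) and basement membrane genes the highest (0.65), and coloured points passed the 2-fold limit in all 3 libraries.

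Against antral granulosa cells, defined as other gate cells with at least 3 of Fst, Inhba, Tdrd5 and Nap1l5 (2622 cells at 4 to 6 wk), Spp1, Rgs5 and S100a6 were among the highest and the inhibin subunits Inhba and Inhbb among the lowest. Of 5988 genes, 105 were higher (1.75%) and 37 lower (0.618%), with the same members as in the comparison with all other gate cells, of which the antral cells are a subset. Spp1 had a ratio of 148 (96.1 to 242), Rgs5 one of 29.9 (24.5 to 36.7) and S100a6 one of 16.3 (14.8 to 18.03). The UMIs of Rgs5, a pericyte marker, came from 12 members, and over all other gate cells its ratio was 0.794, from 2 UMIs, without cells carrying 3 markers of another type. Col4a1 stood at 214, 175 and 168 CPM in members and 18.3, 18.6 and 13.3 CPM in antral cells, a ratio of 11.5 (10.5 to 12.6), Bgn at a ratio of 10.5 (9.12 to 12.1) and Col4a2 at 10.2 (8.97 to 11.6). The collagen IV genes were thus farther from antral cells than from the other gate cells as a whole. Without cells carrying 3 markers of another type, the ratio over the other gate cells was 7.94 for Col4a1 and 6.22 for Col4a2. The Col4a1 UMIs of the other gate cells were then 1441 in place of 5209. The part of other cell types in the gap between the comparisons was not tested. Inhba stood at 170.2, 1307 and 1921 CPM in antral cells, a ratio of 0.113 (0.106 to 0.1201) that the choice of the cells helps to set, and Inhbb, which the choice did not use, had a ratio of 0.126 (0.113 to 0.141). The others of the 6 lowest were Slc26a7 (0.116), Nppc (0.154), Spin2c (0.188) and Mid1ip1, a regulator of fat synthesis (0.247). Fshr, the FSH receptor, held 41 UMIs in members, under the filter.

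The other remodeling granulosa cells, with at least 3 of Lox, Adamts5, Dpp4, Neto2 and Slc1a1, numbered 222 at 4, 5 and 6 wk (114, 31 and 77). Of 5977 genes, 67 were higher in members (1.12%) and 75 lower (1.25%), so here the lower genes outnumbered the higher ones. S100a6 stood at 21.8, 24.4 and 9.57 CPM in the Lox cells, a ratio of 11.8 (9.14 to 15.4), and Spp1 at 0.6597, 0 and 0 CPM, where the whole Lox group held 1 UMI or fewer in each library. Rgcc, a regulator of the cell cycle, had a ratio of 10.01 (8.32 to 12.2) with the libraries summed and of 7.92 to 9.57 in single libraries, since the groups differ in how their cells fall over the libraries, and Heyl, a Notch target, one of 5.89 (4.103 to 8.73). Rgs5 and Cyp11a1 were also among the 6 highest with 58.5 (24.9 to 181) and 58.2 (32.4 to 117), but 5 members held 81.5% of the Rgs5 UMIs and 91.6% of those of Cyp11a1. Ghr, the growth hormone receptor, was lower in members with 67.1, 59.4 and 80.7 CPM against 304, 413 and 333 CPM, a ratio of 0.203 (0.182 to 0.225). Col11a1, a fibrillar collagen, had a ratio of 0.178 (0.161 to 0.196), Bmp3, a BMP antagonist, one of 0.197 (0.164 to 0.236), Pcdh7, a protocadherin, one of 0.263 (0.208 to 0.331), Kcnk2, a potassium channel related to Kcnk3, one of 0.2599 (0.227 to 0.297), and Pde1a, a phosphodiesterase, one of 0.208 (0.158 to 0.271). Col4a1 and Hspb1, at 5.19 (4.33 to 6.27) and 2.08 (1.87 to 2.32), missed the limit in a library. The Lox genes defined that group, and the rule capped them in the members. Of the genes higher over the other gate cells, 13 were also higher over both antral and Lox cells, genes of the rule among them. Of the lower genes, 1 was lower over both. Over Lox cells, single libraries gave ratios of 1.10 to 14.6 for Hsd3b1, 4.51 to 7.06 for Inhbb and 1.42 to 12.3 for Vcan. Amh ran from 0.732 to 1.70 and Gatm from 0.347 to 2.22, so low levels of these genes were not particular to the members.

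Levels differed with the number of markers on both sides of the threshold of 4. Among gate cells at 4 to 6 wk, 1952, 2720, 1456, 583, 263, 79, 19 and 3 cells held 0 to 7 markers. Hspb1 stood at 17.5, 35.8, 77.5, 139, 244, 213, 314 and 626 CPM from 0 to 7 markers, and Col4a1 at 30.3, 48.1, 67.3, 98.9, 152, 222, 378 and 500.5 CPM. Just outside and just inside the threshold, at 3 and 4 markers, S100a6 stood at 52.2 and 146 CPM, Spp1 at 3.78 and 30.5 CPM, Gatm at 10.1 and 6.62 CPM and Hsd3b1 at 374 and 111 CPM. Cells with 3 markers lay between those with 2 and those with 4 in S100a6, Spp1, Hspb1, Col4a1, Gatm and Hsd3b1. S100a6 differed little between 4 and 5 markers and reached 899 CPM in the 19 cells with 6, and 5 of the 364 members held 29.5% of its UMIs. Amh stood at 377, 369, 238, 145, 88.7, 56.7, 38.99 and 17.9 CPM and Foxl2 was lower with each marker up to 3 (203, 136, 98.3 and 95.2 CPM) and varied after that. These levels sum the 3 libraries, whose mix changed with the marker number. At 4, 5 and 6 wk, 132, 67 and 64 cells held 4 markers and 23, 35 and 21 held 5. Amh and Hsd3b1 also differed between the ages, and the part of age in these steps was not tested.

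**Figure D4:**
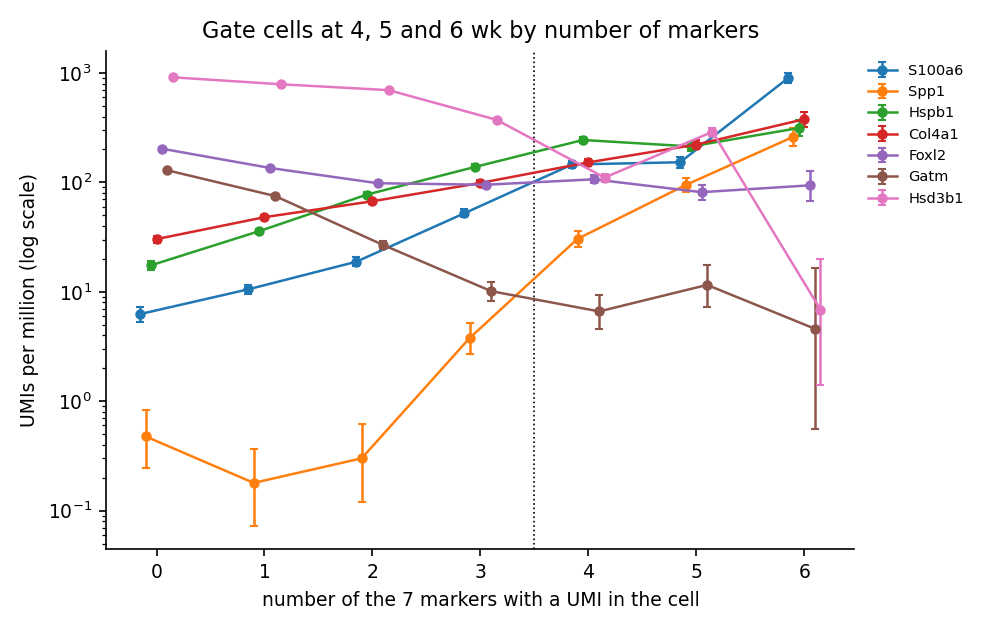
CPM on a log axis in gate cells at 4, 5 and 6 wk by the number of the 7 markers with a UMI (0 to 6; the 3 cells with 7 are not drawn), with exact 95% Poisson intervals and the threshold of 4 as a dotted line. S100a6, Spp1, Hspb1 and Col4a1 are higher at 6 markers than at 0 and Gatm, Foxl2 and Hsd3b1 lower at 6 markers than at 0, though not at every step, with Gatm and Hsd3b1 higher at 5 than at 4.

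The members that held Spp1 also held more markers and more S100a6. They were chosen after their values had been seen and numbered 29 (12, 13 and 4), and 20 of them had at least 5 markers. Their median depth was close to that of the rest, at 20905 against 18889 UMIs, 0 were doublets by Scrublet, and all 6 hematopoietic markers, among them Ptprc, Tyrobp and Lyz2, were at 0 UMIs in them. At least 3 markers of another cell type were carried by 2 of them. Of the 29, 28 held S100a6 (96.6%), against 135 of the 335 members without Spp1 (40.3%). S100a6 stood at 991, 970.2 and 758 CPM in them and 68.6, 194 and 145 CPM in the rest, and Nupr1 at 4229.9 against 1282 CPM with the libraries summed. Of 5907 genes, 29 were 2-fold higher in each library (0.491%) and 25 lower (0.423%). Timp1, an inhibitor of matrix proteases, stood at 338, 189 and 105 CPM against 46.1, 54.03 and 28.9 CPM, Cd109, a TGF-beta co-receptor, at 50.2 against 3.24 CPM, Sema3e, a guidance ligand, at 66.98 against 13.6 CPM, Creb3l1, a factor that drives collagen secretion, at 63.6 against 9.29 CPM and Il1r1, the interleukin-1 receptor, at 70.3 against 16.95 CPM. Agt did not follow, with 278 against 286 CPM. On the low side Nr5a2 stood at 142, 104 and 105 CPM against 333, 289 and 333 CPM, Hsd3b1 at 6.698 against 163 CPM, Timp3, another protease inhibitor, at 8.37 against 69.3 CPM, and Foxl2, which missed the limit, at 50.2 against 103 CPM. With 4 such cells at 6 wk, each 6 wk value rests on few UMIs.

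Within the members, 5 and 6 wk were set against 4 wk. Of 5971 genes, 102 were at least 2 times as high at both later ages (1.71%) and 11 at most 0.5 times (0.184%). The software that counted the reads changed between 4 and 5 wk, and its effect and that of age cannot be told apart. Snhg6, a small nucleolar RNA host gene, stood at 22.4, 92.6 and 104 CPM, Susd3 at 11.8, 49.6 and 58.3 CPM, Smim26, a small membrane protein, at 5.69, 30.04 and 30.6 CPM and Rasd1, a small GTPase induced by steroids, at 12.2, 59.7 and 73.9 CPM. In the other gate cells the same genes stood at 34.99, 95.4 and 147 CPM, 18.8, 110.5 and 79.6 CPM, 10.2, 27.5 and 37.2 CPM and 42.3, 121 and 136 CPM, so they were higher at both later ages there too. Mgarp, a mitochondrial protein of steroid-producing cells, stood at 44.3, 218 and 190.0 CPM in members, and Cldn5, a tight junction protein of endothelium, at 4.88, 76.8 and 25.3 CPM from 9 members. On the low side Hmga2, a chromatin protein of growing cells, stood at 79.7, 29.7 and 24.3 CPM, Mmp2, a gelatinase, at 51.6, 17.8 and 13.6 CPM, Kazald1, which binds insulin-like growth factors, at 109, 41.9 and 41.8 CPM, Lrrfip1 at 142, 65.7 and 43.7 CPM and the unnamed transcript AC160336.1 at 39.4, 7.33 and 15.5 CPM. Amh belonged to the same group, at 161, 38.1 and 30.6 CPM. The other gate cells were also highest at 4 wk in these 6 genes, with 40.6, 17.8 and 18.1 CPM for Hmga2 and 209, 74.6 and 74.7 CPM for Kazald1.

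Single markers of smooth muscle were frequent in the members, and 3 or more markers of another type were found in a minority. Acta2, smooth muscle actin, had a UMI in 202 of 364 members (55.5%) and Tagln, transgelin, in 191 (52.5%), against 25.7 and 19.7% of the other gate cells, which were shallower. Of the 364 members, 48 (13.2%) carried at least 3 markers of a stromal, theca, smooth muscle, pericyte, endothelial, hematopoietic or surface epithelial list, against 11.2% of the other gate cells. By library these were 11.9, 13.3 and 15.4% of members against 7.59, 20.7 and 8.07% of the others, so members were higher at 4 and 6 wk and lower at 5 wk. By this count the smooth muscle list was the most frequent in members, at 7.69% against 2.71% of the others, with summed levels of 465, 343 and 762 CPM and 395, 132 and 348 CPM, and Acta2 was its most abundant gene. The pericyte list summed to 71.6, 37.4 and 257 CPM in members and 22.7, 26.6 and 37.2 CPM in the others, led by Rgs5, whose UMIs came from 12 members. The theca list summed to 60.2, 529 and 196 CPM and 54.9, 1248 and 139 CPM, led by Mgarp, and the endothelial list to 28.5, 369 and 67.5 CPM and 54.9, 98.3 and 33.3 CPM, led by Ccl21a. The 5 wk library stood out for theca and endothelial markers and the 6 wk library for pericyte markers. The stromal list, led by Mmp2 with Dcn at 0 by the rule, summed to 92.7, 45.1 and 104 against 89.1, 73.1 and 65.6 CPM, and the luteal list, led by Prlr, to 30.5, 88.01 and 43.7 against 47.4, 338 and 63.9 CPM. The surface epithelial list, led by Lgals7 with Upk1b and Pax8 at 0, summed to 37.01, 35.97 and 18.95 against 17.1, 16.3 and 13.7 CPM. The hematopoietic list, led by Lyz2 with Ptprc at 0, summed to 19.1, 2.44 and 0.972 against 37.5, 37.5 and 33.7 CPM, and the oocyte list, led by Gdf9 with its other 4 genes at 0, to 0.407, 0.699 and 0.486 against 1.89, 2.095 and 1.36 CPM.

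S100a6, Spp1, Hspb1 and Gatm were at least as far from 1 without the cells that carried such markers. With 316 members and 5962 other gate cells left, 68 genes were higher and 47 lower of 5980 tested. Among them were 46 of the 54 and 29 of the 32, which had come from 6056 tested. S100a6 had a ratio of 15.9 (14.7 to 17.2), Spp1 one of 133 (101 to 179), Hspb1 one of 5.196 (4.896 to 5.51) and Ckb one of 5.42 (5.04 to 5.82). Gatm stood at 0.0588 (0.0391 to 0.0851) and Amh at 0.215 (0.196 to 0.235). Of the higher genes no longer counted, Cnn2 (3.75), Fn1 (4.898) and 4930523C07Rik (2.76) were under the filter at ratios above those with all cells, and Gpx3, Heyl, Hip1, Myof and Trim47 were under 2-fold in a library, at summed ratios of 2.78, 2.41, 2.14, 1.98 and 2.37. The lower genes no longer counted, Cyp17a1, Hao2 and Mt3, were under the filter, with Mt3 at 0.331. The smooth muscle list still differed, with 365, 358 and 327 CPM in members and 122, 104 and 65.96 CPM in the others. The pericyte and endothelial lists were at most 6.56 CPM in each library of members and 7.88 CPM in the others. Low levels of these lists follow from the removal, which used the same markers. The theca list was then higher in members in each library, with 51.1, 161 and 211 against 29.1, 122 and 129 CPM, which turns its direction at 5 wk, and so was the surface epithelial list, with 31.4, 40.96 and 16.8 against 17.5, 16.9 and 12.4 CPM. The part of smooth muscle, theca and surface epithelial genes in the other differences was not tested.

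**Figure D5:**
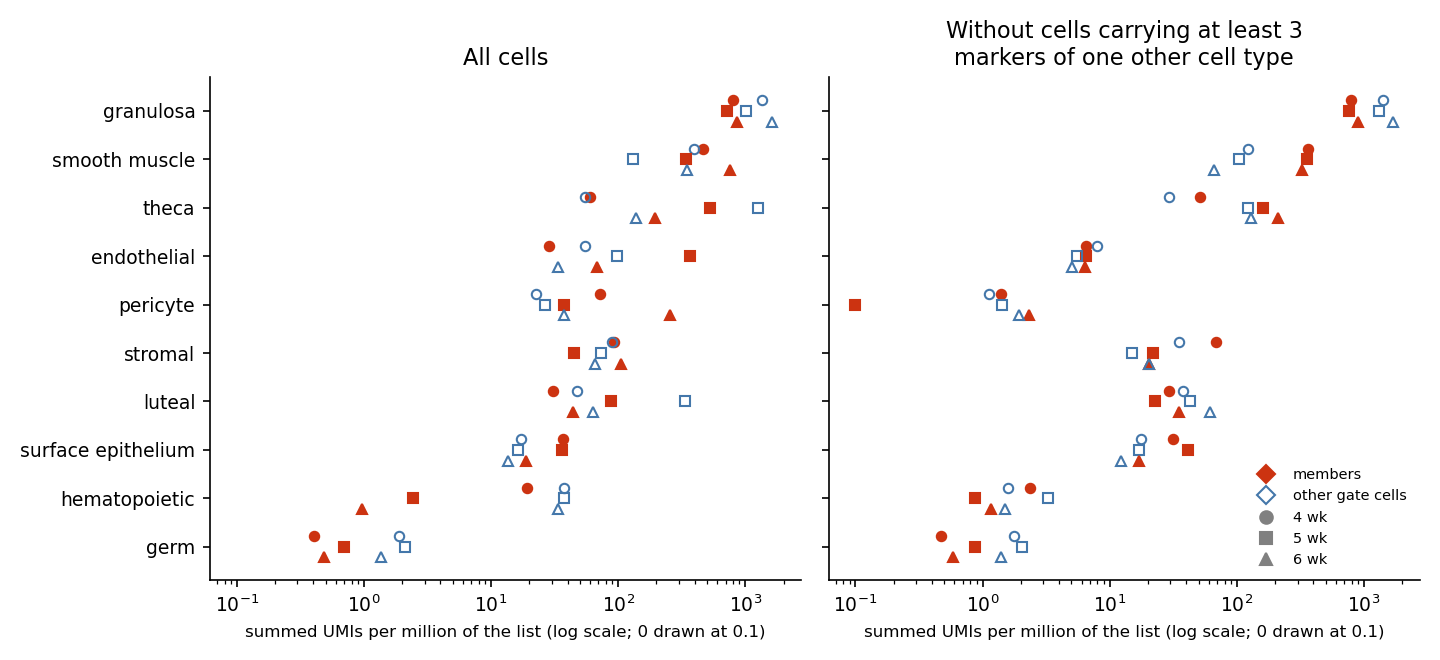
Summed CPM on a log axis of the marker lists of granulosa and 9 other cell types, members (filled) and other gate cells (open) at 4, 5 and 6 wk (circles, squares, triangles), for all cells (left) and without cells carrying at least 3 markers of one other type (right). The pericyte and endothelial lists of both groups are under 10 CPM on the right, where the removal used these markers, and the smooth muscle list of the members stays above that of the other gate cells.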

How the data were processed

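Per the labels and the study's methods, single cells of untreated C57BL6/J ovaries were captured with a 10x Genomics kit for 3′ ends, and the authors aligned the reads to mm10 and counted UMIs per gene and cell. The deposited matrices hold raw counts as whole numbers. Per the file headers, the younger libraries (2, 3 and 4 wk) were counted by version 3.1.0 of Cell Ranger and the older by version 6.0.1. Total counts were 124938004, 93438618, 117666094, 107071492 and 144609431 for 9471, 9253, 11077, 7779 and 10583 cells, at 2, 3, 4, 5 and 6 wk. Genes that shared a symbol (35 symbols) were summed.

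The members, the gene lists and the comparisons were chosen with earlier results of these data known. UMIs were summed per group and library and scaled to CPM. Levels have exact Poisson, shares exact binomial and ratios exact conditional 95% intervals. Molecules counted by UMIs share amplification and capture, so intervals cover counting error only. With 1 library per age no test was run. A ratio against a count of 0 used a floor of 3 counts. The design had called for all 5 libraries, but with 0 and 3 members at 2 and 3 wk it was applied to libraries with at least 50 members (4, 5 and 6 wk), and ratios given for several libraries sum their counts. Genes needed a mean of both groups of at least 20 CPM in these libraries.

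Named were the genes of the rule, S100a6, the genes of the lists, the 12 with the highest lowest and 10 with the lowest highest ratio over other gate cells, and 6 each way against the antral cells, the Lox cells and between ages. Ribosomal, mitochondrial, hemoglobin, Gm-numbered and Rik genes were left out of these rankings. Scrublet in scanpy 1.11.5 called doublets per library, and the cells were kept. Hematopoietic cells had at least 3 of Ptprc, Laptm5, Tyrobp, Coro1a and Fcer1g, and mesenchymal cells at least 5 UMIs of Dcn and at most 1 of Inha. Thinning drew 5000 UMIs per cell with seed 1 and left out shallower cells. Python 3.11.15, numpy 2.4.6, pandas 2.3.3, scipy 1.17.1 and matplotlib 3.10.9 were used. The ratios and calls were tested on simulated data without variation between mice. Alternatives were the number of markers, the mitochondrial limit, doublets, thinning, comparison cells, scaling, the filter and leaving out a library. Gene positions are from GENCODE M21 and RefSeq on GRCm38, and the authors' clusters and comparisons were not used.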

Additional observations from a re-analysis of the deposited data

Results flagged for a closer look

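The ratio of Col3a1, a fibrillar collagen of stromal cells, in members over other gate cells was 1.34 in its highest library and 0.228 in its lowest. It drew attention because the libraries lay on opposite sides of 1, with 20.7, 12.9 and 41.8 CPM in members and 32.3, 56.6 and 31.1 CPM in the others at 4, 5 and 6 wk. Mt2, a metallothionein that binds zinc and copper, had ratios between 4.63 and 0.755, with 34.2, 69.5 and 71.4 CPM in members and 15.2, 92.02 and 15.4 CPM in the others, and stood below 1 at 5 wk. Without cells carrying 3 markers of another type its ratio was 3.74, between 2.85 and 5.35 in the libraries, so none lay below 1. For neither gene was the difference between libraries tested, and a library is also an age.

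Outside the granulosa gate, 847 cells of sufficient quality held at least 4 of the 7 markers, more than the 367 members, with 52, 33, 310, 190 and 262 at 2, 3, 4, 5 and 6 wk. They are reported because the comparisons did not use them. Of them, 545 (64.3%) held a Dcn UMI, 345 (40.7%) had under 2 UMIs of Inha, 301 held Ube2c, 214 held Pamr1 and 61 held at least 3 Lox genes. By their markers 103 were pericytes, 36 endothelial and 12 hematopoietic cells.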

How the results depend on the processing

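No paired test was run, and the labels give no replicate numbers. Members and other gate cells of the same library form a pair, and they were compared within each library without a test. Of 6056 genes tested, 54 were 2-fold higher and 32 lower in members. The filter on low values changed both these counts and the number of genes tested. At 5 CPM, 95 and 88 of 9866 genes were called, and at 50 CPM 26 and 12 of 2976. The counts also moved with the comparison cells. They were 83 and 58 of 6083 against cells with 0 or 1 marker, and 105 of 5988 were higher against antral cells. With at least 3 markers 29 of 6037 genes were higher, and with thinned cells 20 of 5999 were lower. The lower bound of the 4 over 2 wk share (35.8) was 6.26 with at least 5 markers, 28.8 with under 10% mitochondrial UMIs and 8.82 with thinned cells. Leaving out the 4, 5 or 6 wk library gave 60 to 70 higher and 38 to 48 lower genes, of 5969 to 6131 tested. Without the 2 or 3 wk library, which were not compared, the counts stay as they are. Between ages in the members, 102 genes were higher and 11 lower at 5 and 6 wk, of 5971 tested. These counts were 243 and 61 of 5942 with at least 5 markers and 413 and 153 of 5907 with thinned cells. They were 313 and 36 of 9750 at 5 CPM and 43 and 3 of 2988 at 50 CPM. When ribosomal, mitochondrial and rule genes were left out of the total, 20 of 7185 were lower.

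Cyp17a1 and Cyp11a1 turned to ratios of 1.03 and 1.03 with at least 5 markers and to 4.52 and 3.06 against antral cells, where Star turned to 2.03. Without cells carrying 3 markers of another type, an alternative chosen after seeing the data, Star was at 1.44 and Rgs5 at 0.794, from 2 UMIs in members. Of the ratios recomputed for 30 named genes, 108 stayed within their counting interval, 185 moved outside it in the same direction and 7 turned. S100a6 ranged from 10.1 to 22.9, Hspb1 from 3.96 to 8.50, Spp1 from 57.3 to 244 and Col4a1 from 2.83 to 11.5. The planned counts of 5 and 6 wk against 2 and 3 wk were not run, since 0 and 3 members were found there, and those against 4 wk replaced them after seeing the data. With 91 to 160 members in a library, counting error limits the precision of low genes.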

Other observations

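Further genes past the 2-fold limit in all 3 libraries were chosen for description after their values were seen. Rarres2, which encodes the adipokine chemerin, stood at 499.6 CPM in members and 151 CPM in other gate cells, a ratio of 3.31. Mesenchymal cells held it more often, with a UMI in 84.7% of cells thinned to 5000 UMIs against 50.3% of members (unthinned 93.6 and 74.5%). Cd36, a receptor for fatty acids and thrombospondin, stood at 60.97 against 20.6 CPM, Crabp2, a retinoic acid carrier, at 113 against 45.8 CPM and Chchd10, a mitochondrial intermembrane protein, at 1837 against 802 CPM. These 4 genes were higher in members at each of 4, 5 and 6 wk. Plau, the urokinase protease, had a ratio of 2.62 and Mmp11, a matrix metalloproteinase, one of 2.82. Tnfrsf12a, the TWEAK receptor, had one of 2.64 and Uchl1, a neuronal ubiquitin hydrolase, one of 3.37. Over the Lox cells, the lowest ratio in a library was 2.15 for Cd36, 1.96 for Chchd10, 1.48 for Crabp2 and 1.34 for Rarres2. It was 1.53 for Plau, 1.42 for Mmp11, 1.56 for Tnfrsf12a and 1.19 for Uchl1, so of these genes only Cd36 kept the 2-fold limit there.

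On the low side, Ihh, a hedgehog ligand by which granulosa cells signal to theca cells, stood at 21.95 CPM in members and 66.2 CPM in the others, a ratio of 0.332. Nnat, an imprinted membrane protein, had a ratio of 0.341, Mycl, a MYC family factor, one of 0.322 and Serpinf1, which encodes the anti-angiogenic factor PEDF, one of 0.352. No hypothesis is attached to these values.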
